A study of Arabidopsis thaliana with 18 samples.

Results

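Cyclic nucleotide-gated channels (CNGCs) are cation channels of plant membranes, several of which admit calcium. The 10 genes described here are CNGC1 (AT5G53130), CNGC2 (AT5G15410), CNGC3 (AT2G46430), CNGC4 (AT5G54250), CNGC10 (AT1G01340), CNGC11 (AT2G46440), CNGC12 (AT2G46450), CNGC13 (AT4G01010), CNGC19 (AT3G17690) and CNGC20 (AT3G17700). They were taken by locus identifier from the gene family, with earlier results of these data known. Their counts and medians set beside those of all genes are therefore descriptions and not a test of the family. All 10 have a row in the count table of 32678 genes, and all 10 were among the 19227 genes tested. The RNA came from leaves of Arabidopsis thaliana line ED-P4E1 in the Col-0 background, a double mutant for eds1-2 and pad4-1 that carries PAD4 behind an estradiol-inducible promoter and EDS1 behind the 35S promoter of cauliflower mosaic virus, which is active in most tissues. All 6 groups share this genotype. Plants of 4 weeks, grown at 22 °C with 10 h of light, were sprayed with 10 µM estradiol or with mock solution containing 0.2% DMSO, both with 0.01% silwet, a surfactant, and leaves were taken 6, 12 and 24 h later, with 3 libraries in each group and 18 in all. The labels name 1 transgenic line, and no estradiol-treated line without the inducible transgene was analysed here. An effect of PAD4 and an effect of estradiol itself can therefore not be told apart. The labels give no DMSO content for the estradiol spray, so an effect of the solvent cannot be told apart either.

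A CNGC subunit has membrane-spanning helices around a pore and a cytosolic tail that binds cyclic nucleotides and calmodulin, and several subunits join into a channel. In Arabidopsis leaves CNGC2 and CNGC4 form a calcium channel that the immune kinase BIK1 activates when a microbial pattern is perceived, and loss of either gene (mutants dnd1 and dnd2) raises salicylic acid and blocks the hypersensitive cell death. A deletion that fuses CNGC11 to CNGC12 (mutant cpr22) triggers immunity without a pathogen, and CNGC19 with CNGC20 is needed for the cell death of plants that lack BAK1 and its paralog SERK4. EDS1 and PAD4 act together in immunity downstream of intracellular receptors of the TIR class.

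Of the 10 genes, 5 stand in head-to-tail rows of neighbours. CNGC3, CNGC11 and CNGC12 follow each other on the plus strand of chromosome 2, with 195 and 598 bases between the annotated genes, and CNGC19 and CNGC20 on the plus strand of chromosome 3, with 284 bases between them (RefSeq annotation of TAIR10.1). The sequences before the annotated starts of 4 genes are shown because they stand before the 3 genes with the smallest adjusted p at 24 h (CNGC3, CNGC11 and CNGC20, all higher with estradiol) and before CNGC2, which fell at 12 h. They are given 5′ to 3′ on the gene's own strand and end 1 base before the annotated start, from the RefSeq sequence of TAIR10.1, at chr2:19057749-19057998 on the plus strand, chr2:19061493-19061687 on the plus strand, chr3:6048564-6048813 on the plus strand and chr5:5006883-5007132 on the minus strand. Capitals mark TTGAC, the core of the W-box that WRKY factors bind, or its reverse complement GTCAA. The CNGC11 stretch is 195 bases because CNGC3 lies before it.
CNGC3: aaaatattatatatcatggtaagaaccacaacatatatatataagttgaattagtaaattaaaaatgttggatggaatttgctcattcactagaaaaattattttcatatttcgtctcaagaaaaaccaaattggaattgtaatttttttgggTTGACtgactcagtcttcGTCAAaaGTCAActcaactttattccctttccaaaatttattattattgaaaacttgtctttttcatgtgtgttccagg
CNGC11: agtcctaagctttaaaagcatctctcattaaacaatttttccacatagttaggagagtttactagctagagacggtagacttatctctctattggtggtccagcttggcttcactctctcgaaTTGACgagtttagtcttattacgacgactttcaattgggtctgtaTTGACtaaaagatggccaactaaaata
CNGC20: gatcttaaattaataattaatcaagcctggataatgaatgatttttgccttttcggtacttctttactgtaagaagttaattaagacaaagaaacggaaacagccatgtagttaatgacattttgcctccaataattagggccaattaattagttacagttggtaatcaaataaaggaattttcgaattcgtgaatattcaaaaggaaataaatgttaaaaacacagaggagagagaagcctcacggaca
CNGC2: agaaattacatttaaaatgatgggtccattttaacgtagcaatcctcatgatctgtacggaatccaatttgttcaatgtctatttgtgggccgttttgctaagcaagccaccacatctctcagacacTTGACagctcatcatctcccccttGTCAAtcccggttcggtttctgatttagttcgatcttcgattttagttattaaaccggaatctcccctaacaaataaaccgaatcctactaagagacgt

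CNGC3 held the core 3 times, CNGC11 and CNGC2 2 times each, and CNGC20 had none of these letters in its window. Over windows of 250 bases TTGAC on either strand was found before 6 of the 10 CNGC genes and before 44.9% of 27443 protein-coding genes. The 6 were CNGC1, CNGC2, CNGC3, CNGC10, CNGC11 and CNGC13, of which CNGC1 and CNGC13 were not called between treatments by edgeR. CNGC4, CNGC19 and CNGC20, which were called, had none. The longer forms TTGACC or TTGACT were found before 5 of the 10 (CNGC1, CNGC3, CNGC10, CNGC11 and CNGC13) and before 28.4% of all. TGACG, the core bound by TGA factors, which overlaps TTGAC where TTGACG is read, was before CNGC3 and CNGC11, and before 18.6% of all. The evening element AAAATATCT of clock-controlled genes was before 0 of the 10 and before 2.36% of all. These matches describe letters and are not measured binding sites.

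Reads counted to genes ranged from 19.1 to 48.1 M per library, so a floor of 3 counts corresponded to 0.0624 to 0.157 CPM (counts scaled to the same total in each library) before scaling. CPM below are scaled by TMM, which corrects for the make-up of the libraries. PAD4 was called higher at each time (fold changes 6.84, 19.1 and 14.1, adjusted p 0.000119, 1.88e-07 and 3.05e-08), the direction the labels give. All 5 mesophyll markers examined were detected in every group and the 3 root markers summed to at most 0.105 CPM in any library, against a summed level of 15672 CPM or more for the mesophyll list. In whole leaves fewer cells of a type and less RNA per cell cannot be told apart. Whether the 3 libraries of a group come from different plants is not labelled, and the p-values therefore rest on a spread that may be technical.

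Scaled by exonic length, CNGC2 had the highest level of the 10 genes in 5 of the 6 groups and CNGC19 the lowest in all 6. In mock leaves at 6 h the mean levels per kb of exon were 49.0 CPM for CNGC2, 18.7 for CNGC4, 16.1 for CNGC1, 12.7 for CNGC12, 10.6 for CNGC11, 7.05 for CNGC3, 6.84 for CNGC20, 1.42 for CNGC13, 0.745 for CNGC10 and 0.0234 for CNGC19. In that order the libraries of CNGC12 and CNGC11 overlapped, as did those of CNGC3 and CNGC20. In estradiol-treated leaves at 12 h the order had changed at the top, with CNGC11 at 38.9 and CNGC3 at 37.4 CPM per kb, whose libraries overlapped, above CNGC2 at 33.4 CPM per kb. In mock leaves at 12 h CNGC2 stood first at 47.5 CPM per kb, above CNGC4 at 29.3, CNGC11 at 28.6 and CNGC3 at 24.1, where CNGC4 and CNGC11 overlapped. At 24 h CNGC2 led in both treatments, followed by CNGC12 in mock (48.8 CPM per kb) and by CNGC11 and CNGC12 in estradiol-treated leaves (65.6 and 55.9 CPM per kb), whose libraries overlapped.

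**Figure D1:**
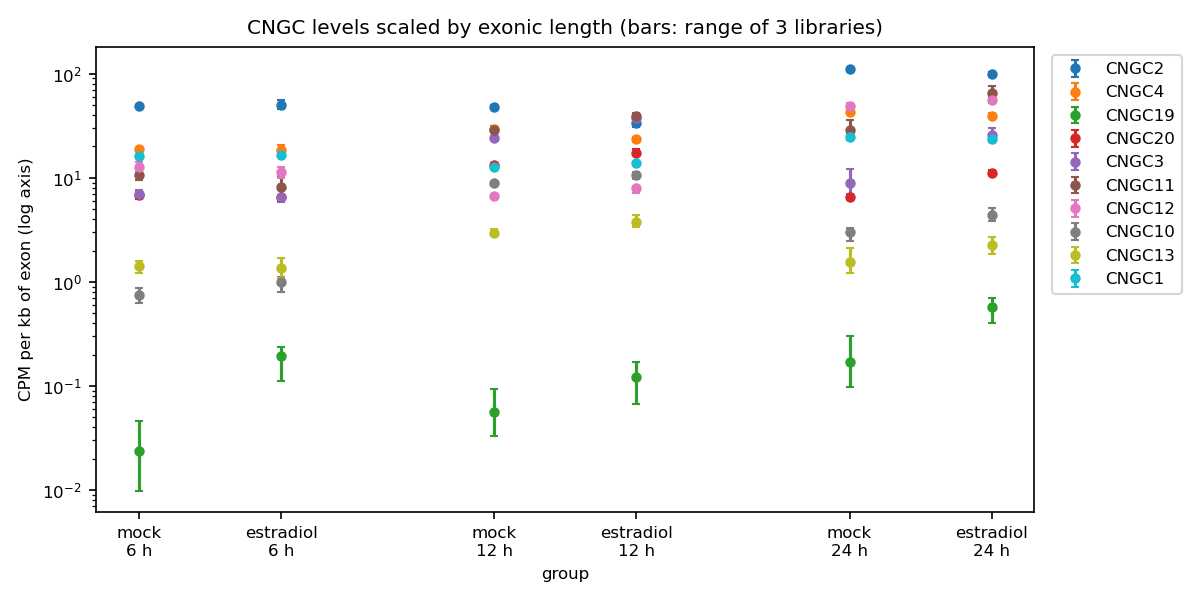
Mean level of each of the 10 CNGC genes in CPM per kb of exon on a log axis, by group; bars span the 3 libraries of a group. CNGC2 (blue) is at the top except in estradiol-treated leaves at 12 h, where CNGC11 and CNGC3 stand at 38.9 and 37.4 CPM per kb, and CNGC19 (green) is the lowest throughout.

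At 6 h none of the 10 CNGC genes passed the test between estradiol and mock, while 0.0364% of all genes tested did (edgeR's quasi-likelihood test, p-values adjusted by Benjamini and Hochberg over the whole table, calls below 0.05). At an unadjusted p under 0.05 there were 2, CNGC10 and CNGC19, both higher, and DESeq2 called 1, CNGC19, and limma-voom 0. The median log2 fold change was −0.04 over the 10 genes and 0.01 over all genes tested. CNGC11, which forms calcium-permeable channels and lies beside CNGC12, was at 21.6, 15.8 and 27.4 CPM in the estradiol and 33.5, 26.0 and 25.0 CPM in the mock libraries. The treatments overlapped, with the 2 lowest values in estradiol libraries and a log2 difference of −0.38 (95% interval −0.79 to 0.02, adjusted p 0.659). For CNGC1, CNGC2, CNGC4 and CNGC20 the 95% intervals of the log2 fold change at 6 h ran from −0.09 to 0.18, −0.11 to 0.18, −0.17 to 0.13 and −0.25 to 0.08. The wider intervals of CNGC3, CNGC10, CNGC12 and CNGC13 ran from −0.47 to 0.24, 0.02 to 0.83, −0.37 to 0.02 and −0.53 to 0.40. Apart from CNGC19, every member had overlapping libraries at 6 h.

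CNGC19, a channel known for calcium signals in the leaf vasculature after wounding or herbivory, was close to the detection floor at 6 h. It had 14, 9 and 18 counts in the estradiol and 4, 1 and 1 counts in the mock libraries, or 0.664, 0.323 and 0.678 against 0.133, 0.0419 and 0.0285 CPM. Every estradiol library was above every mock library, which held for 6.88% of all genes tested and for no other CNGC gene. The fitted change of 7.70-fold had an unadjusted p of 0.000471 and an adjusted p of 0.267, against 0.0391 with DESeq2. Its level passed the minimum of the filter in 8 libraries, of which 7 were estradiol and 1 mock, so that it entered the test through its estradiol libraries alone.

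**Figure D2:**
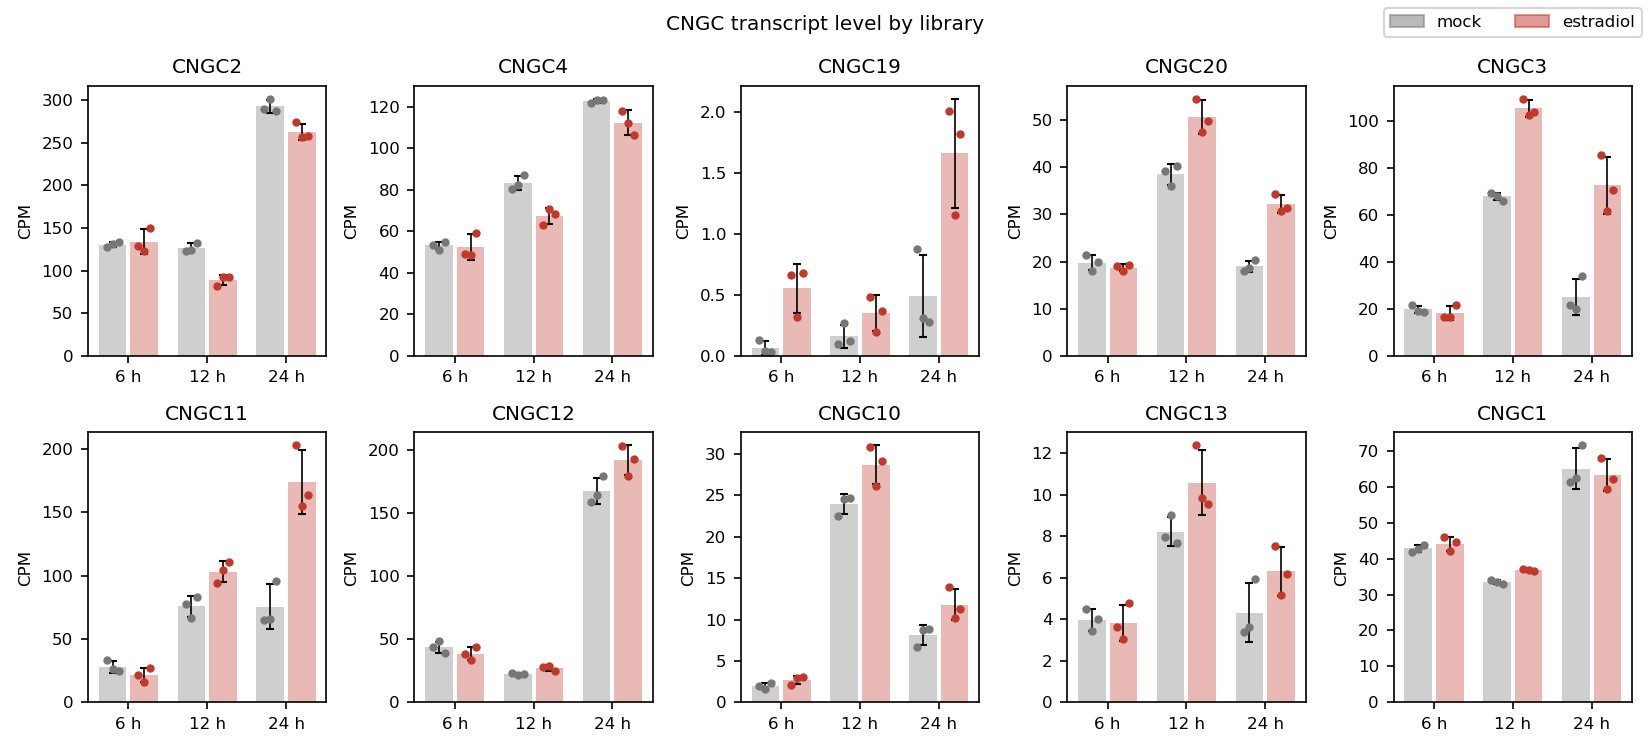
Level of each CNGC gene in CPM, with grey for mock and red for estradiol at 6, 12 and 24 h; bars are means, error bars SD and points the 3 libraries. CNGC3, CNGC10, CNGC11, CNGC12 and CNGC20 are higher with estradiol and CNGC2 and CNGC4 lower without overlap at both 12 and 24 h, though not all of these differences were called, and the mock levels themselves differ between times.

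At 12 h CNGC3 and CNGC20 rose and CNGC2 and CNGC4 fell, so that 4 of the 10 genes changed, where 9.71% of all genes tested did. The 2 that rose compare with 4.64% of all genes and the 2 that fell with 5.07%. The median log2 fold change was 0.32 over the 10 genes and −0.01 over all. CNGC2 and CNGC4, the subunits of the channel that BIK1 activates, were the ones that fell. All estradiol libraries lay above all mock libraries for 7 genes, against 14.6% of all genes tested, and below them for 2, against 16.9%. CNGC19 was the one gene whose libraries overlapped.

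CNGC2 was at 82.2, 92.0 and 92.4 CPM in the 3 estradiol libraries at 12 h and at 123, 124 and 133 CPM in the mock libraries. All estradiol libraries lay below all mock libraries, with means of 88.9 ± 5.75 and 126 ± 5.26 CPM (SD, n = 3 per group, as below), a level 1.42-fold lower (log2 −0.51, SE 0.07, adjusted p 0.000203). At 24 h it was at 274, 257 and 258 CPM against 289, 301 and 287 CPM. The treatments again did not overlap, but the difference of −0.15 (log2) was not called (adjusted p 0.127). The effect of estradiol on CNGC2 differed between 12 and 6 h by −0.55 (log2, adjusted p 0.0161), where 0.791% of all genes differed. This difference lost its call without mock replicate 1 of 6 h, mock replicate 2 of 12 h or estradiol replicate 1 of 12 h (adjusted p 0.0651, 0.0506 and 0.0545).

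CNGC4 was at 63.0, 70.5 and 68.4 CPM against 80.4, 82.2 and 87.2 CPM at 12 h. The libraries did not overlap, and the level was 1.24-fold lower (log2 −0.31, SE 0.07, adjusted p 0.00797; 0.0689 without estradiol replicate 1). At 24 h it was at 118, 112 and 106 CPM against 122, 123 and 123 CPM, again without overlap, with a log2 difference of −0.13 that was not called (adjusted p 0.217, 95% interval −0.28 to 0.02). The change of its effect from 6 to 12 h was −0.29 (log2, adjusted p 0.188).

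CNGC20, the partner of CNGC19 in the cell death of BAK1-deficient plants, rose at 12 h to 54.5, 47.5 and 49.7 CPM from 39.3, 36.0 and 40.2 CPM in the mock libraries. It also rose at 24 h, to 34.4, 30.7 and 31.5 from 18.1, 18.6 and 20.3 CPM, and at neither time did the treatments overlap. The fold changes were 1.31 and 1.70 (log2 0.39 with SE 0.07 and 0.76 with SE 0.07, adjusted p 0.00171 and 7.18e-07). At 6 h it was at 18.7 ± 0.674 against 19.8 ± 1.64 CPM. Its effect was larger at 12 than at 6 h by 0.48 (log2, adjusted p 0.042) and larger at 24 than at 6 h by 0.85 (adjusted p 5.17e-05). The first of these was lost in 8 of 12 fits that left out 1 library, with adjusted p up to 0.127. These were the fits without mock replicate 1 or 3 of 6 h, estradiol replicate 1 or 2 of 6 h, any mock library of 12 h, or estradiol replicate 1 of 12 h. The change from 12 to 24 h, 0.37, was not called (adjusted p 0.0678, but 0.0297 with the replicate number as a block).

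CNGC3, which transports sodium and potassium in seedlings, was at 109, 103 and 104 CPM against 69.4, 68.0 and 66.1 CPM at 12 h, and at 85.5, 61.5 and 70.6 CPM against 21.7, 19.8 and 34.0 CPM at 24 h. No estradiol library overlapped with a mock library at either time, and mock replicate 3 was the highest of the mock libraries at 24 h. CNGC3 rose 1.55-fold at 12 h and 2.91-fold at 24 h (log2 0.63 with SE 0.14 and 1.54 with SE 0.15, adjusted p 0.00985 and 1.09e-06; at 12 h 0.0536 without estradiol replicate 1). Its effect grew from 12 to 24 h by 0.91 (log2, adjusted p 0.0279), the one such call among the 10 genes, where 2.12% of all genes differed and 1.85% did so upwards. That call was lost in 9 of 12 fits that left out 1 library (adjusted p up to 0.0946), and was kept without estradiol replicate 1 of 12 h, mock replicate 3 of 24 h or estradiol replicate 2 of 24 h. Between 6 and 24 h the effect grew by 1.65 (log2, adjusted p 0.000124), a call made in 19 of 19 alternatives. CNGC3, CNGC11 and CNGC20 were the 3 members whose effect differed between 6 and 24 h, all upwards, where 6.03% of all genes differed and 4.03% upwards.

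At 24 h CNGC3, CNGC10, CNGC11, CNGC19 and CNGC20 rose and none of the 10 fell, by edgeR, DESeq2 and limma-voom alike (at an unadjusted p under 0.05, 1 was lower, CNGC2). Of all genes tested 8.43% rose and 6.54% fell at 24 h, 15.0% together. The estradiol libraries lay above the mock libraries without overlap for 6 of the 10 genes (13.3% of all genes) and below them for 2 (14.9%). The median log2 fold change was 0.56 over the 10 genes and −0.03 over all. CNGC19 had entered the test through its estradiol libraries alone, and of the other 9 genes 4 rose, with a median of 0.54. DESeq2 added CNGC13 (adjusted p 0.0428).

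CNGC11 rose at 24 h to 203, 155 and 163 CPM from 65.1, 65.5 and 96.1 CPM in the mock libraries. The lowest estradiol library was above the highest mock library, replicate 3. The means were 174 ± 25.4 and 75.6 ± 17.8 CPM, a 2.31-fold rise (log2 1.21, SE 0.17, adjusted p 6.80e-05). At 12 h it was at 94.0, 104 and 111 against 77.6, 66.9 and 82.9 CPM, without overlap, at an adjusted p of 0.107, but 0.00933 when only the 12 h libraries were fitted. The effect was larger at 24 than at 6 h by 1.59 (log2, adjusted p 0.000584).

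CNGC12, the next gene on the chromosome and the other part of the cpr22 fusion, was at 203, 179.9 and 193 CPM against 159, 164 and 179 CPM at 24 h. All estradiol libraries lay above all mock libraries, with a log2 difference of 0.20 (95% interval 0.01 to 0.38) that was not called (adjusted p 0.13). The interval for CNGC11 at the same time was 0.83 to 1.58. The difference between the genes was not tested. At 12 h CNGC12 was at 28.2, 28.7 and 24.7 against 23.3, 22.0 and 22.9 CPM (adjusted p 0.0807, but 0.0303 with only the 12 h libraries). CNGC3, CNGC11 and CNGC12 are similar in sequence, and how reads that match several genes were treated is known only as far as the table lists a class of reads not uniquely aligned, so the split of reads among them is uncertain.

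CNGC19 rose at 24 h to 2.01, 1.16 and 1.82 CPM from 0.874, 0.314 and 0.281 CPM, from 50, 19 and 43 counts in the estradiol and 23, 12 and 7 counts in the mock libraries. The treatments did not overlap, though mock replicate 1 was close to the lowest estradiol library. The change was 3.51-fold (log2 1.81, SE 0.42, adjusted p 0.0066), and it moved to 2.47 (log2) without mock replicate 1. This call is limited by the filter on low counts, which CNGC19 passed in estradiol libraries and not in enough mock libraries; with no filter the adjusted p was 0.00578. Without mock replicate 2 the call was lost (adjusted p 0.0545). At 12 h it was at 0.349 ± 0.146 against 0.161 ± 0.0955 CPM, with overlapping libraries (adjusted p 0.223).

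CNGC10, a potassium-permeable channel of the plasma membrane, rose 1.46-fold at 24 h, to 13.9, 10.2 and 11.3 CPM from 6.68, 8.79 and 8.92 CPM (log2 0.54, SE 0.13, adjusted p 0.00832; 0.0694 without estradiol replicate 1). The treatments did not overlap. At 12 h it was at 30.8, 26.2 and 29.1 against 22.6, 24.5 and 24.7 CPM, also without overlap, and was not called (adjusted p 0.152, but 0.0455 with limma-voom). CNGC13, whose role is little known, was at 7.54, 5.17 and 6.21 against 3.38, 3.61 and 5.95 CPM, and here the libraries overlapped, mock replicate 3 being above the lowest estradiol library (adjusted p 0.0658, but 0.00556 without that library). CNGC1, which takes up calcium in roots, was at 63.2 ± 4.40 against 65.0 ± 5.63 CPM with overlapping libraries and a 95% interval of −0.17 to 0.09 on the log2 scale. Its highest value was in mock replicate 3. At 12 h CNGC13 was at 12.4, 9.85 and 9.54 against 7.97, 9.03 and 7.68 CPM and CNGC1 at 37.0, 36.9 and 36.5 against 34.0, 33.6 and 32.9 CPM. Neither overlapped and neither was called (adjusted p 0.207 and 0.169).

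**Figure D3:**
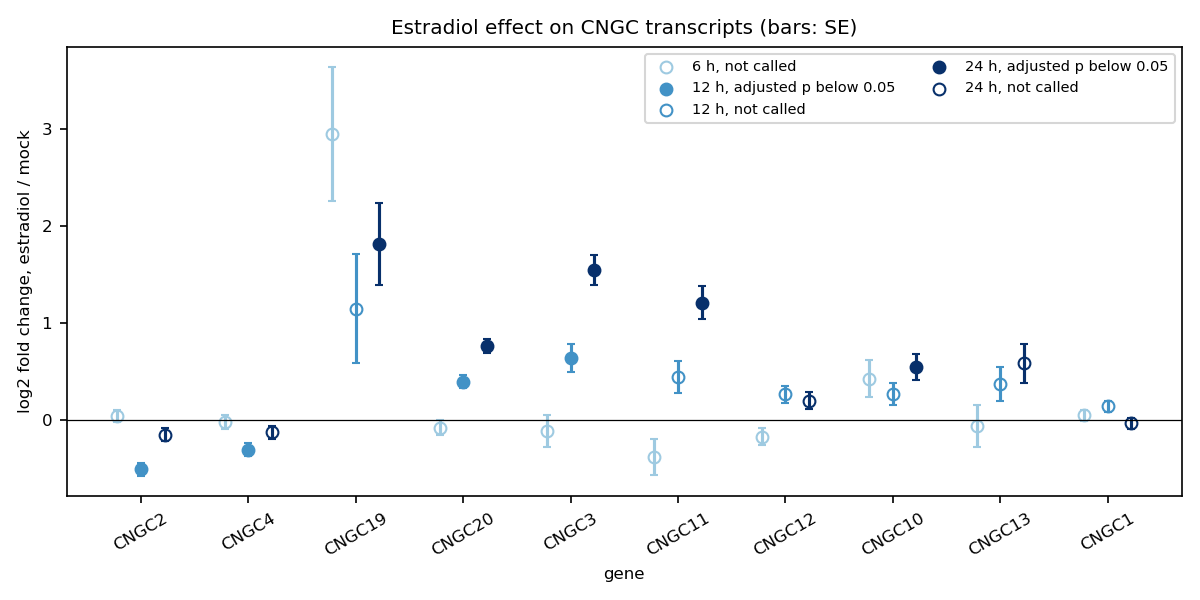
Log2 fold change of estradiol over mock for each CNGC gene at 6, 12 and 24 h, with the SE as bars; filled points passed an adjusted p of 0.05 and open points did not. CNGC3, CNGC11 and CNGC20 stand at 1.54, 1.21 and 0.76 at 24 h and at −0.11, −0.38 and −0.08 at 6 h, and CNGC2 and CNGC4 are below 0 at 12 h.

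At 24 h 2 of 5 epidermal and guard cell markers (ATML1 and KAT1) and 1 of 4 vascular markers (SUC2) were called lower with estradiol. None was called higher in either list, and of all genes tested 6.54% were called lower. The epidermal list summed to 118 to 127 CPM with estradiol and to 137 to 149 CPM with mock, and the vascular list to 233 to 244 and 254 to 288 CPM. At 12 h 1 of 5 mesophyll markers was called higher and 1 lower (LHCB1.1 and CA1), against 4.64% and 5.07% of all genes tested. The mesophyll list then summed to 15672 to 16640.2 CPM with estradiol and 17318 to 18153 CPM with mock. No epidermal or vascular marker was called at 12 h. The epidermal list then summed to 95.9 to 102 CPM with estradiol and 103 to 105 CPM with mock. The vascular list summed to 174 to 192 and 190 to 206 CPM, with overlap. The part of these shifts in the CNGC values was not tested.

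In mock leaves most of the 10 genes also differed between times, as did most of the transcriptome. From 6 to 12 h 6 rose and 2 fell (CNGC1 and CNGC12), where 64.3% of all genes changed, 33.7% upwards and 30.6% downwards. From 12 to 24 h 5 rose and 4 fell (CNGC3, CNGC10, CNGC13 and CNGC20), where 75.0% changed, 35.9% upwards and 39.1% downwards. From 6 to 24 h 7 rose, where 66.2% changed, 34.3% upwards and 31.9% downwards, and none fell (none also at an unadjusted p under 0.05, with DESeq2 or with limma-voom). CNGC19, tested through its estradiol libraries alone, is counted among the 5 and the 7. The share of members that changed either way was near the background in each comparison, though from 6 to 24 h all called members rose. Time of day, time since the spray and leaf age cannot be told apart. The TMM factors differed with time as well. They were 0.93 in the mock libraries of 6 h, ran from 1.24 to 1.27 in those of 12 h, and lay between 0.795 and 0.852 in those of 24 h. The directions of smaller changes rest on this scaling, such as −0.35 (log2) for CNGC1 from 6 to 12 h and 0.56 for CNGC4 from 12 to 24 h. Unscaled levels were not tested.

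CNGC10 had the largest ratio between mock group means of the 10 genes (12.0), from 1.96, 1.68 and 2.37 CPM at 6 h to 22.6, 24.5 and 24.7 CPM at 12 h and 6.68, 8.79 and 8.92 CPM at 24 h. No libraries of different times overlapped, and the rise from 6 to 12 h was 11.8-fold (adjusted p 3.07e-13). CNGC12 went the other way, from 43.6, 48.3 and 39.3 CPM at 6 h down to 23.3, 22.0 and 22.9 CPM at 12 h and up to 159, 164 and 179 CPM at 24 h. Its rise from 12 to 24 h was 7.37-fold (adjusted p 2.95e-15). Its neighbours CNGC3 and CNGC11 instead rose from 6 to 12 h, 3.42-fold and 2.69-fold (adjusted p 1.04e-08 and 1.08e-06). From 12 to 24 h CNGC3 fell in mock leaves by 1.44 on the log2 scale (adjusted p 8.47e-08), while CNGC11 was at 75.6 ± 17.8 against 75.8 ± 8.14 CPM (adjusted p 0.971).

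CNGC20 and CNGC13 also rose from 6 to 12 h and fell from 12 to 24 h in mock leaves. CNGC20 had a 1.94-fold and CNGC13 a 2.05-fold higher level at 12 than at 6 h, and 2.03-fold and 1.93-fold lower levels at 24 than at 12 h (adjusted p at most 0.000237). CNGC2, CNGC4 and CNGC1 were highest at 24 h, at 293 ± 7.61, 123 ± 0.908 and 65.0 ± 5.63 CPM, against 130.5 ± 2.68, 53.2 ± 1.85 and 42.8 ± 1.03 CPM at 6 h.

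The members with the closest profiles over the 18 libraries were not neighbours on the chromosome. Likeness was measured as the root mean square difference of log2 CPM after each gene was centred on its own mean, in log2 units, and is given as a description. CNGC13 and CNGC20 were the closest pair (0.19), followed by CNGC1 and CNGC2 (0.32), CNGC2 and CNGC4 (0.38) and CNGC1 and CNGC4 (0.38). The neighbours CNGC3 and CNGC11 were 0.62 apart, CNGC11 and CNGC12 1.24 and CNGC19 and CNGC20 1.34. CNGC3 was nearer to CNGC13 and CNGC20 (0.50 and 0.50) than to CNGC11. CNGC19 had group totals from 6 to 112 counts, and its distances to other members, 1.08 or more, are imprecise at such counts.

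Of 8338 other tested genes with a symbol, the 2 nearest to CNGC20 were ZAR1 (AT3G50950), an intracellular immune receptor that forms a membrane channel, and CERK1 (AT3G21630), the chitin receptor kinase (0.12 and 0.12). Nearest to CNGC3 were HR3, a homolog of the RPW8 resistance protein, and AMT1;1, an ammonium transporter (0.24 and 0.24). Nearest to CNGC11 were CYP72A8, a cytochrome P450, and ACD6, an ankyrin-repeat membrane protein that promotes cell death (0.23 and 0.24). CNGC2 was nearest to TBL27 and ROPGEF1 (0.10 and 0.10), and CNGC4 to NHL1, an NDR1-like protein, and EXGT-A3, a xyloglucan-modifying enzyme (0.10 and 0.10). CNGC10 was nearest to HAE, a receptor kinase of organ abscission, and FRB1, at the larger distances of 0.41 and 0.42. CNGC19, imprecise at its low counts, was nearest to PPI2 and LSU4 (0.69 and 0.71). Time and treatment are shared by all these profiles.

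Of the 10 other CNGC genes of Arabidopsis, 7 were tested and 1 changed, CNGC5, a calcium channel of guard cells, where 5.07% of all genes tested fell at 12 h and 6.54% at 24 h. CNGC5 was 1.16-fold lower at both 12 and 24 h, and at 24 h stood at 57.9 ± 1.52 against 67.1 ± 2.92 CPM (adjusted p 0.0481 and 0.0356). None of the 7 was called higher at 12 or 24 h by edgeR, DESeq2 or limma-voom, and none at an unadjusted p under 0.05. Over the list the median log2 fold change was −0.17 at 12 h and 0.10 at 24 h. The list is the rest of the family after the 10 genes were chosen with earlier results of these data known. A contrast between the lists may be set by that choice and was not tested. CNGC8, CNGC14 and CNGC16 were too low to test, with group means of at most 0.228 CPM. The pollen channels CNGC7 and CNGC18 had group means of at most 0.529 and 1.08 CPM.

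Among the kinases and copine-linked proteins tied to CNGC channels, 2 of 7 tested rose at 12 h and 5 of 7 at 24 h, and none fell (none also at an unadjusted p under 0.05, or with DESeq2 or limma-voom). Of all genes tested 4.64% rose at 12 h and 8.43% at 24 h. SERK4, the receptor kinase that acts with BAK1, rose 1.32-fold at 12 h and 2.31-fold at 24 h, to 41.7 ± 7.59 from 18.1 ± 1.24 CPM (adjusted p 0.0133 and 2.05e-07). BAK1 itself rose 1.18-fold and 1.22-fold (adjusted p 0.0207 and 0.00619), and PBL1, a paralog of BIK1, rose 1.65-fold at 24 h (adjusted p 0.000328). CPK28, a calcium-dependent kinase that limits BIK1, rose 1.25-fold at 24 h (adjusted p 0.0315). BAP1, the other gene called at 24 h, was near the detection floor. Over the libraries of 24 h it had 57 counts with estradiol (mean 0.906 CPM) and 3 with mock (mean 0.0348 CPM). BIK1 was at 8.68 ± 1.56 against 6.96 ± 0.432 CPM at 12 h and 8.97 ± 1.18 against 8.24 ± 0.241 CPM at 24 h, and did not pass (adjusted p 0.161 and 0.609). The list had median log2 fold changes of 0.28 at 12 h and 0.32 at 24 h. The copine BON1 had at most 3 counts per group and was not tested.

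Of the 7 calmodulin genes, whose proteins bind CNGC tails, CAM2 and CAM3 rose at 24 h (against 8.43% of all genes tested), 1.45-fold and 1.16-fold (adjusted p 0.000243 and 0.00518), and none changed at 12 h (2 higher at an unadjusted p under 0.05, none with DESeq2 and 1 with limma-voom). The calmodulin genes encode identical or near-identical proteins. How reads that match several of these genes were counted is not given, so the split of reads among them is uncertain. The median log2 fold change of the list was 0.06 at 12 h and 0.05 at 24 h. Of 9 tested calmodulin-like proteins 2 rose at 12 h and 3 at 24 h, against 4.64% and 8.43% of all genes tested. TCH3, a touch-induced calcium sensor, rose 1.76-fold and then 4.38-fold, to 105 ± 12.0 from 24.0 ± 7.04 CPM at 24 h (adjusted p 0.0237 and 3.65e-06). The other called calmodulin-like genes had a mean log2 CPM below 0 over all libraries, so these counts rest partly on low genes. Over the list the median log2 fold change was 0.81 at 12 h and 0.36 at 24 h.

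Calcium pumps and exchangers remove calcium from the cytosol after a channel has let it in. Of 9 calcium pumps and exchangers, 6 rose and 1 fell at 12 h, and 5 rose and 1 fell at 24 h. Over all genes tested 4.64% rose and 5.07% fell at 12 h, and 8.43% rose and 6.54% fell at 24 h. ACA12, a plasma membrane pump, rose 3.06-fold at 12 h to 20.2 ± 10.6 from 6.75 ± 3.04 CPM (adjusted p 0.00751). CAX3, a vacuolar calcium exchanger, rose 2.41-fold at 12 h and 4.72-fold at 24 h, to 7.63 ± 2.45 from 1.64 ± 0.109 CPM (adjusted p 0.00928 and 9.61e-06). ACA13 rose 1.94-fold and 2.50-fold, and ACA1 1.41-fold and 1.56-fold (adjusted p at most 0.00832). The vacuolar pump ACA11 rose 1.49-fold at 24 h (adjusted p 0.000772), and ACA4, the other vacuolar pump, was the one that fell at both times (log2 −0.25 and −0.30). The list had median log2 fold changes of 0.33 at 12 h and 0.43 at 24 h.

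Of 7 tested calcium channels of other families, 1 rose and 2 fell at 12 h, and 2 rose and 2 fell at 24 h, where 9.71% and 15.0% of all genes changed. GLR3.3, a glutamate receptor-like channel of wound signals, was 1.31-fold and 1.23-fold lower at these times (adjusted p 0.0058 and 0.00764). OSCA1.1, an osmosensing channel, was 1.19-fold and 1.21-fold lower (adjusted p 0.014 and 0.00446). GLR2.7, which takes part in calcium signals to microbial patterns, rose 1.40-fold at 24 h (adjusted p 0.00815), with overlapping libraries. GLR2.8 rose at both times but was low, at 1.33 against 0.544 CPM at 12 h and 0.548 against 0.122 CPM at 24 h. The median log2 fold change of the list was −0.13 at 12 h and −0.10 at 24 h.

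**Figure D4:**
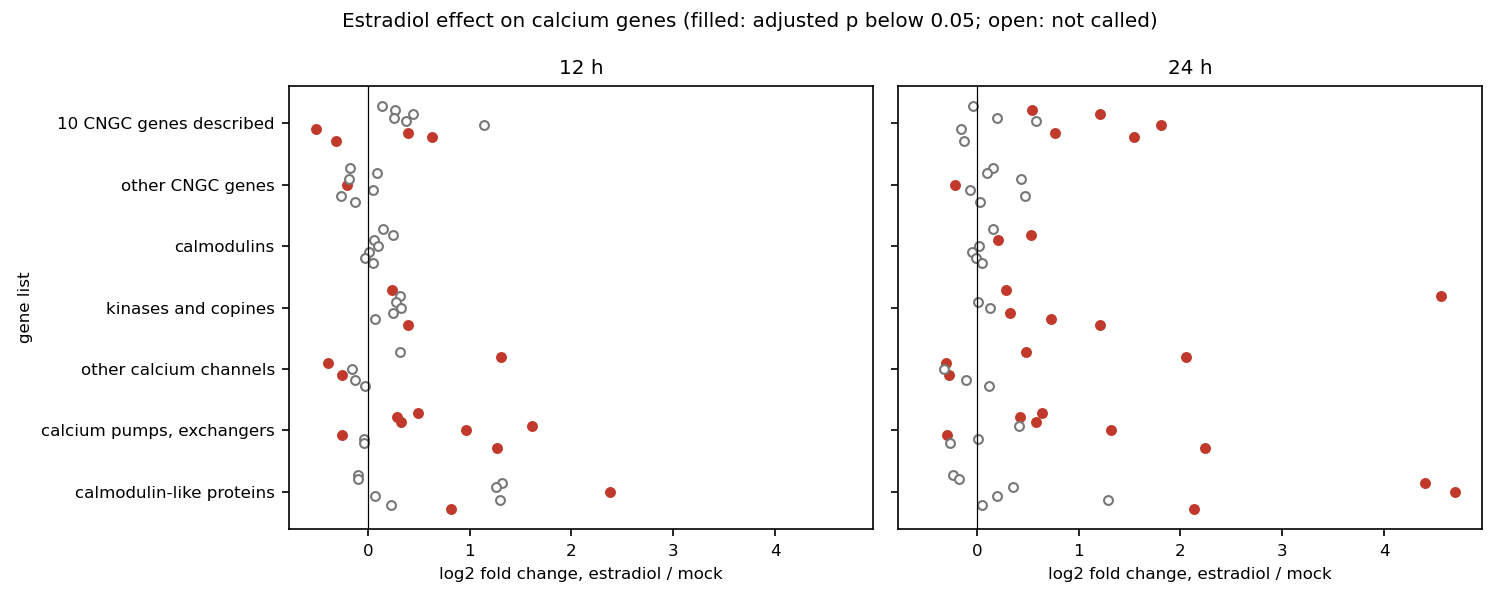
Log2 fold change of estradiol over mock at 12 h (left) and 24 h (right), 1 point per tested gene, by list; filled points passed an adjusted p of 0.05. At 24 h the 10 CNGC genes range from −0.15 to 1.81, and the other CNGC genes hold 1 filled point, CNGC5, at −0.21.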

How the data were processed

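Poly(A) RNA of 18 leaf libraries was analysed, 3 in each of 6 groups that the titles define. The authors deposited raw counts of reads per gene, made with FastQC 0.11.2, TopHat2 2.0.10 and HTSeq on TAIR10, per the submitters' processing notes. Annotation release, strand and counting mode: not given in the sources used here. Overlapping or antisense genes can therefore not be told apart. The 5 classes of reads assigned to no gene (5.76 to 6.71% of reads) were left out.

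Counts were tested with edgeR 4.0.16 in R 4.3.3 (quasi-likelihood, 1 coefficient per group, all 18 libraries, TMM, filterByExpr with minimum count 10), and p-values were adjusted by Benjamini and Hochberg over 19227 genes, with calls below 0.05. The SE is the log2 fold change over the square root of F, and 95% intervals use 12 degrees of freedom. Alternatives were DESeq2 size factors, no filter, a minimum of 1 CPM in 3 libraries, DESeq2 1.42.0 as the test, limma-voom (limma 3.58.1), a block for the replicate number, the compared libraries alone, and each library left out. The code was tested on simulated counts.

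From each list up to 4 called genes per comparison were named, by size of change with a mean log2 CPM of at least 0. The 2 nearest profiles were named for members called between treatments. BIK1, BON1, BAP1, GLR2.8, ACA4 and the lowest CNGC genes were named after their values were seen. The members and lists were chosen with earlier results of these data known. Gene models, exon lengths and upstream sequences are RefSeq's for TAIR10.1, matched by locus identifier; the count table carries no coordinates.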

Additional observations from a re-analysis of the deposited data

Results flagged for a closer look

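The effect of estradiol on 4 CNGC genes differed between times by a direct test, where 0.791% of all genes tested differed between 6 and 12 h, 2.12% between 12 and 24 h and 6.03% between 6 and 24 h. For CNGC2 it changed by −0.55 on the log2 scale from 6 to 12 h (adjusted p 0.0161), with overlapping libraries at 6 h and a lower level with estradiol at 12 h. For CNGC20 it changed by 0.48 from 6 to 12 h and by 0.85 from 6 to 24 h (adjusted p 0.042 and 5.17e-05). For CNGC3 it changed by 0.91 from 12 to 24 h and by 1.65 from 6 to 24 h (adjusted p 0.0279 and 0.000124). For CNGC11 it changed by 1.59 from 6 to 24 h (adjusted p 0.000584). The CNGC20 call from 6 to 12 h was lost in 8 of 12 fits that left out 1 library, the CNGC3 call from 12 to 24 h in 9 of 12 and the CNGC2 call in 3 of 12. The comparisons share groups and are not independent of each other.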

How the results depend on the processing

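Of the 10 CNGC genes, 4 were called at 12 h and 5 at 24 h, and a fit of the 12 h libraries alone called 7 at 12 h, adding CNGC10, CNGC11 and CNGC12, where that fit called 11.5% of all genes. At 24 h the same kind of fit called 5 of the 10 and 9.22% of all genes. At 6 h DESeq2 called 1 in place of 0 (0.198% of all genes). DESeq2 called 4 rather than 2 for the change of effect from 6 to 12 h (3.02% of the genes it adjusted) and 3 rather than 1 from 12 to 24 h (565 of 18854 genes), where limma-voom and the replicate block each called 2 (2.13 and 1.95%) and the fit with only the libraries compared called 4 (2.36%). Leaving out 1 library gave 0 called genes at 6 h, 2 to 5 at 12 h, 4 to 6 at 24 h, 0 to 4 for the change from 6 to 12 h, 0 to 3 from 12 to 24 h and 3 to 4 from 6 to 24 h, and in mock leaves 8, 8 to 9 and 7 to 8 for 12 against 6 h, 24 against 12 h and 24 against 6 h. The 2 at 12 h (CNGC2 and CNGC20) came without estradiol replicate 1. No called value changed sign under any of these alternatives. Uncalled values near 0 did: CNGC11 in mock at 24 against 12 h was 0.018 with DESeq2 size factors, 0.020 with DESeq2 and 0.032 with only those libraries, and −0.22 to 0.087 over single libraries left out. The other ranges over single libraries were −0.053 to 0.093 for CNGC2 at 6 h, −0.12 to 0.024 for CNGC4 at 6 h, −0.27 to 0.083 for CNGC13 at 6 h, −0.094 to 0.035 for CNGC1 at 24 h, −0.032 to 0.22 for CNGC10 in the change of effect from 6 to 24 h and −0.19 to 0.23 for CNGC13 in mock at 24 against 6 h. The causes were not tested. CNGC19 was not tested under the filter of 1 CPM. It also dropped out of the fits with only the compared libraries at 6 h, at 12 h and between mock times. In mock leaves the rise of CNGC19 from 12 to 24 h lost its call without mock replicate 1 of 24 h or mock replicate 1 or 3 of 12 h. Same-numbered libraries of the treatments did not deviate together (correlations −0.16 to 0.20, over 0.1 in 3 of 9 pairs), so the numbers were not taken as pairs; with the replicate block 4 genes were called at 12 h and 5 at 24 h. DESeq2 size factors moved the median of all genes by at most 0.0402 (log2). Every alternative kept a scaling between libraries, so the dependence of the mock time calls on such scaling was not tested. At these depths a change in CNGC19, with 6 counts in mock at 6 h, was the least precise.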
